A study of Mus musculus with 92 samples.

Results

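The cohesin ring holds DNA segments together and extrudes chromatin loops, and in somatic cells each ring carries 1 of 2 alternative subunits, STAG1 or STAG2. CTCF is a zinc-finger DNA-binding protein at which extruding cohesin halts and where cohesin peaks are commonly found. Epiblast-like cells (EpiLC) are made from embryonic stem cells (ESC) in culture, model the formative state of the epiblast after implantation, and are the competent precursors of primordial germ cell-like cells (PGCLC). The comparison here is of where STAG2 and where STAG1 was found by chromatin immunoprecipitation sequencing in the same wild-type EpiLC.

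It rests on 4 of the 92 samples of the series, which studies STAG3-cohesin in the male mouse germline: 2 EpiLC STAG2 and 2 EpiLC STAG1 peak lists. All 4 came from EpiLC of the BDF1-2-1 line, which carries Blimp1-mVenus and Stella-ECFP reporters (BVSC), is wild type for the STAG genes, and was harvested without sorting and crosslinked with formaldehyde. Each list holds the peaks that the authors called in 1 library. For comparison there were 19 STAG2 and STAG1 lists of 4 other wild-type cell types: ESC, PGCLC of the stages named d2 and d4c7, and germline stem cells (GSC). The ESC and PGCLC come from the same line, the PGCLC sorted for the Blimp1-mVenus signal, and the GSC come from another line, with Acrosin-EGFP and beta-Actin-EGFP reporters (AAG), and were sorted for that signal. CTCF was taken from 4 lists of GSC that lack STAG genes (Stag1Stag2dKO, Stag1Stag3dKO, Stag2Stag3dKO and Stag3KO), so a CTCF site here is a GSC site called in all 4 genotypes and not one measured in EpiLC. No expression was measured in these files, so the labelled cell type could not be checked against its marker genes. The labels do not say whether replicates were separate cultures, so the p-values below speak for the spread of these particular samples alone, and that spread may be technical.

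A site of a protein was a merged interval overlapped by both of its lists. In the other cell types a site needed every list of the protein, which was 3 lists for STAG2 in PGCLC and GSC. For STAG2 in ESC, and for STAG1 in each of these cell types, it was 2. There were 72155 STAG2 sites and 13895 STAG1 sites. A STAG2 site that touched a STAG1 site was called shared, and one that touched none was called STAG2-only. STAG1-only sites were defined the other way round. The number printed as fold is the authors' enrichment of a peak over its local background, given by their peak caller. It ranks peaks within a list, and since read depth behind the lists is unknown, folds of different lists were not compared as amounts of protein. Where a peak is said to be lacking, the authors' caller reported none.

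The 4 promoter windows that follow show the kinds of place the results turn on. Each is the RefSeq window of the GRCm38.p6 assembly from 250 bases before to 50 bases after a gene start, 5′ to 3′ on the strand of the named gene. Prmt5, an arginine methyltransferase, and Polg, the catalytic subunit of the mitochondrial DNA polymerase, have a tRNA gene beside their start, and capitals mark the bases of that tRNA gene. Pou5f1, which encodes the pluripotency factor OCT4, is shown for a STAG2-only site at its start (folds of 4.16 and 4.32), and Ctcf for a shared site. Capitals mark in both the GC box GGGCGG on either strand. The STAG2 peaks at Ctcf cover the window, and the STAG1 peaks lie under the same site just past its 3′ end.
Prmt5, chr14:54517421-54517720, minus strand: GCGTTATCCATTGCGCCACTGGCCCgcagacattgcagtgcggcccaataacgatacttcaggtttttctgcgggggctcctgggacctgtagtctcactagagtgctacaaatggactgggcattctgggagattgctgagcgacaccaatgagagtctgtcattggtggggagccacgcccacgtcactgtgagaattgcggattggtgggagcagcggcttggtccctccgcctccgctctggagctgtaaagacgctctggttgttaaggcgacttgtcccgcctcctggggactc
Polg, chr7:79466224-79466523, minus strand: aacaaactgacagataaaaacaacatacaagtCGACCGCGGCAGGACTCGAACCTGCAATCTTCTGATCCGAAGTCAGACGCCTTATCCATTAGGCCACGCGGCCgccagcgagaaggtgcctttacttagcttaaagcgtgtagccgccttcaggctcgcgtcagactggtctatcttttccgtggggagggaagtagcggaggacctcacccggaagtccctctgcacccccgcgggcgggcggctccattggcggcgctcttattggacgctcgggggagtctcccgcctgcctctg
Pou5f1, chr17:35505782-35506081, plus strand: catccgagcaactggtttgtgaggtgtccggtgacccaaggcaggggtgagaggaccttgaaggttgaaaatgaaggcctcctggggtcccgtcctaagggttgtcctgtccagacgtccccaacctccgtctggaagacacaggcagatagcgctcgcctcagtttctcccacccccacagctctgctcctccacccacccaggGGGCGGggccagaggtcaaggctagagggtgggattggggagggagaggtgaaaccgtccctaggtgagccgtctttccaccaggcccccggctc
Ctcf, chr8:105636288-105636587, plus strand: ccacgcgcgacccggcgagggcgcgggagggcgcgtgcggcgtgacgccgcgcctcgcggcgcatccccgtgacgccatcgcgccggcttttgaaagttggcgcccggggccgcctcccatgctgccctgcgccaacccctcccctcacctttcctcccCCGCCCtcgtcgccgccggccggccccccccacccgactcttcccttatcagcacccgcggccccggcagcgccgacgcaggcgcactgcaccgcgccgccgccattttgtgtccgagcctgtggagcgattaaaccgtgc

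STAG2 was called at far more places than STAG1. The STAG2 lists held 84904 and 82994 peaks, against 14720 and 25756 peaks in the STAG1 lists. The mean log2 number of peaks was 2.11 higher for STAG2. The 2 STAG2 lists were alike in length, whereas the longer STAG1 list, replicate 2, had 1.75 times as many peaks as replicate 1. Both STAG2 lists were longer than both STAG1 lists, which in 2 against 2 lists gives p = 0.333 (exact two-sided permutation test over 6 regroupings), the smallest p this design allows. STAG2 peaks were also wider, with a median width of 392 and 380 bp in the STAG2 lists, against 271 and 292.5 bp in the STAG1 lists.

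The STAG1 replicates differed mostly by peaks of low fold. Of STAG2 peaks, 85.7% of replicate 1 overlapped replicate 2 and 88.0% of replicate 2 overlapped replicate 1. Of STAG1 peaks, 94.5% of the shorter list overlapped the longer one, and 54.0% of the longer list overlapped the shorter one. The 11858 STAG1 replicate 2 peaks that replicate 1 lacks had a median fold of 5.02, against 8.69 for the 13898 that overlapped replicate 1. Of those 11858 peaks, 62.5% lay at a CTCF site and 88.7% on a STAG2 site. A STAG1 site needs both lists, and with replicate 2 alone there were 25756 STAG1 sites.

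STAG1 peaks were mostly on CTCF sites and most STAG2 peaks were not. Of STAG2 peaks, 37.9% and 38.6% overlapped a CTCF site in the 2 lists, against 90.9% and 78.0% of STAG1 peaks. The means were 38.3% ± 0.499 for STAG2 and 84.5% ± 9.16 for STAG1 (SD, n = 2 each), a difference of -46.2 percentage points. The lists did not overlap (p = 0.333, exact two-sided permutation test, the smallest possible). With each list shortened to its 14720 peaks of highest fold, the difference was -4.78 points. At gene ends, meaning within 2500 bp of either end of a protein-coding gene, lay 21.4% and 21.6% of STAG2 peaks, against 17.9% and 16.6% of STAG1 peaks. That is a difference of 4.24 points (p = 0.333, exact two-sided permutation test), and of 0.795 points with lists of equal length. Gene ends take up 6.69% of the span of the chromosomes covered by the lists, less than the share of peaks of either protein.

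**Figure D1:**
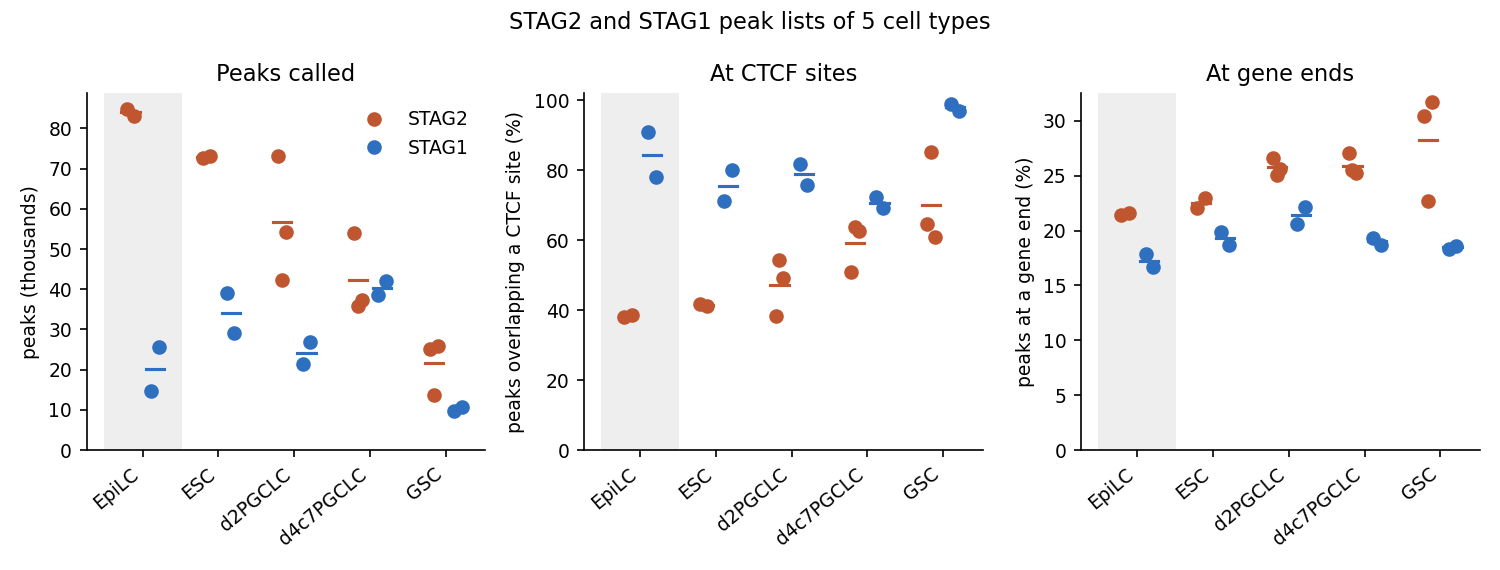
Points are single STAG2 (left) and STAG1 (right) peak lists in 5 cell types, with a bar at the group mean, and EpiLC is shaded. From left to right the panels give the number of peaks, the percentage of peaks at CTCF sites and the percentage at gene ends; the EpiLC STAG2 lists hold 84904 and 82994 peaks, above the STAG1 lists at 14720 and 25756.

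Nearly every STAG1 site was also a STAG2 site, and the reverse did not hold. Of the STAG1 sites 99.3% were shared, and of the STAG2 sites 19.02% were shared, 13722 in number. Over the 4 pairings of 1 STAG2 with 1 STAG1 list the shared part was 23.1% ± 6.70 of STAG2 peaks and 97.0% ± 2.54 of STAG1 peaks (SD, n = 4 pairings that reuse lists). The STAG2-only sites numbered 58433. Of these, 47302 had no peak in either STAG1 list, 10374 touched a peak of STAG1 replicate 2 only, 749 touched one of replicate 1 only, and 8 touched separate peaks of both. Without STAG1 replicate 1, 33.4% of STAG2 sites were shared. Once the lists had equal length, the shared part was 69.1% for STAG2 and 81.9% for STAG1.

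The classes differed in how often they lay on CTCF. CTCF sites were overlapped by 32.2% of STAG2-only sites, against 91.8% of shared sites; over the 4 pairings the shares were 23.8% ± 3.82 and 86.8% ± 5.56 (SD). With lists of equal length 69.8% of STAG2-only sites were at CTCF. Among STAG2-only sites the figure was 23.1% for those without any STAG1 peak, and 69.5% for those with a peak of STAG1 replicate 2 only. Sites without any STAG1 peak lay a median 11.7 kb from the nearest CTCF site, while the median shared site overlapped one. Gene ends held 21.3% of STAG2-only sites, against 18.3% of shared sites. STAG2-only sites lay within 1000 bp of a RefSeq gene start in 12.5% of cases, against 7.78% of shared sites. The gene-end and gene-start shares were not matched for STAG2 fold. Over all STAG2 sites the share near a start was 22.5% at a fold under 5, 7.91% from 40 to 80 and 12.7% at 160 or more. The X chromosome carried 3.45% of STAG2-only sites, against 0.918% of shared sites, also not matched for fold. By list it carried 3.00% and 2.94% of STAG2 peaks, and 0.910% and 1.77% of STAG1 peaks.

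STAG2-only sites were also weaker STAG2 sites. Their median STAG2 fold was 8.77 in replicate 1 and 8.67 in replicate 2, against 59.97 and 58.8 for shared sites. Since STAG2 fold and sharing moved together, sites of like fold were set side by side. Among sites with a STAG2 fold of 20 to 40 (geometric mean of the 2 lists), 35.5% of 7549 sites at CTCF were shared, against 8.47% of 3177 sites off CTCF. From 40 to 80 the shares were 74.7% of 6123 sites at CTCF and 40.9% of 1183 off CTCF. From 80 to 160 they were 96.9% of 3609 and 77.7% of 332. At matched STAG2 fold a site on CTCF was thus more often called for STAG1 in each of these ranges. From 5 to 10, a range that holds 24715 of the sites without a STAG1 peak, 3.15% of sites at CTCF and 0.0578% of those off CTCF were shared.

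Of the 36623 CTCF sites, a STAG2 site without a STAG1 site lay on 51.4%, both on 34.5%, a STAG1 site alone on 27 sites and neither on 14.0%. The median CTCF fold in GSC was 18.96 at those with STAG2 and no STAG1 site, against 26.9 at those with both, and 13.4 at those with neither. Across 4 equal groups of CTCF sites, from the lowest to the highest CTCF fold, a STAG2 site was present on 76.3%, 84.7%, 89.1% and 93.5%. A STAG1 site was present on 16.8%, 30.1%, 38.6% and 52.7%. The share thus climbed with CTCF fold for both proteins.

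The STAG2 sites of highest fold without STAG1 lay almost all on tRNA genes. tRNA genes are short genes transcribed by RNA polymerase III, whose factor TFIIIC binds an internal element, the B box. In budding yeast they are known as places where the cohesin loader and condensin are found. Among STAG2 sites with a fold of at least 160 and no peak in either STAG1 list, 151 of 161 (93.8%) overlapped a tRNA gene. In the range from 80 to 160 it was 31.0% of 42 sites, and from 40 to 80 it was 1.86% of 376. Off CTCF, 172 sites had a fold of 160 or more, of which 144 overlapped a tRNA gene and 28 did not. All 22 shared sites off CTCF were among the 28, and at CTCF 830 of 853 sites of that fold were shared. The tRNA genes were singled out after these sites had been inspected, so their counts describe the lists and are not a test.

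**Figure D2:**
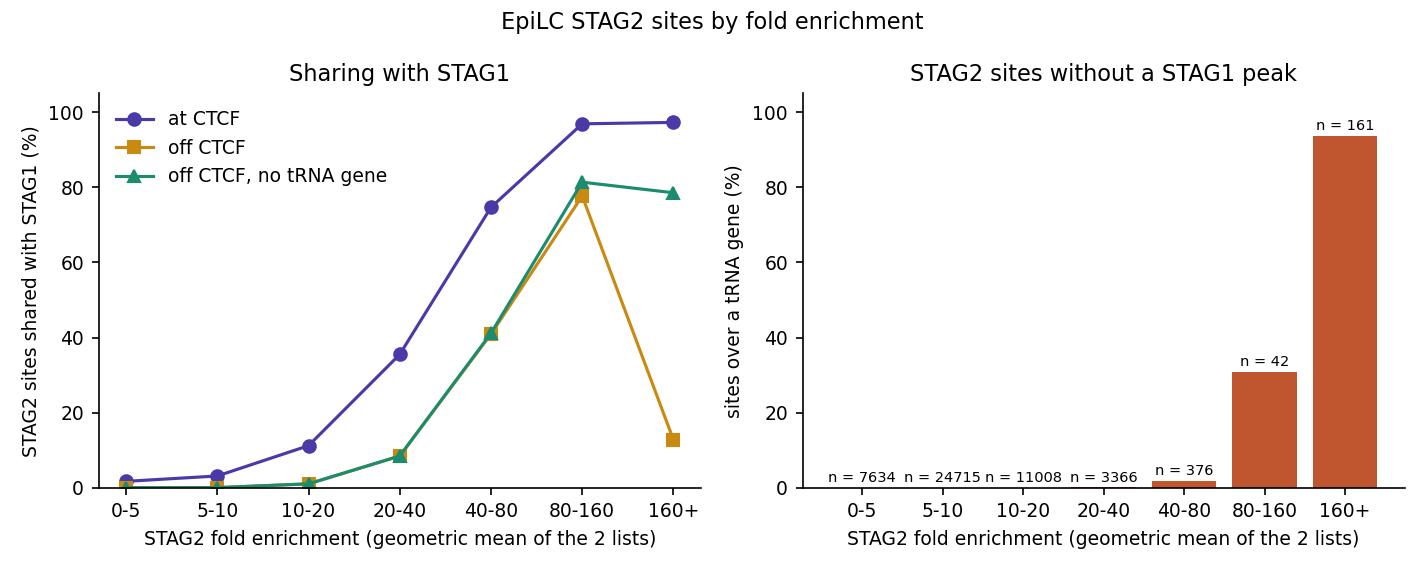
Left: the percentage of EpiLC STAG2 sites that are shared with STAG1 against STAG2 fold, for sites at CTCF, off CTCF, and off CTCF with tRNA genes left out. Right: the percentage of sites without a STAG1 peak that overlap a tRNA gene, which reaches 93.8% of 161 sites at a fold of 160 or more; n is the number of sites.

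Of the 408 tRNA genes that RefSeq places on the chromosomes, 261 (64.0%) were overlapped by a peak of both STAG2 lists and of neither STAG1 list. The same held for 19.3% of genes of every RefSeq kind and 8.24% of all genes up to 350 bp long. The largest kinds of short RNA gene were below that level, with 4.33% of 1340 snoRNA genes, 4.18% of 1004 snRNA genes and 2.93% of 1228 miRNA genes. Among kinds of fewer than 10 genes it held for 2 of 2 Y RNA genes, 1 of 1 RNase MRP RNA gene, 2 of 4 RNase P RNA genes and 2 of 9 short lncRNA genes. A peak lay on 265 and 267 tRNA genes in the STAG2 lists, against 1 and 5 in the STAG1 lists. A tRNA gene with peaks of all 4 lists occurred 1 time, and STAG1 without STAG2 occurred 0 times. A CTCF site overlapped 10 of the 261 genes and 16 of all 408 tRNA genes, a like share.

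The STAG2 fold at these 261 genes was high for both lists. In replicate 1 it ranged from 4.66 to 644 with a median of 340, and in replicate 2 from 6.09 to 537 with a median of 285. The medians of all peaks in the same lists were 8.78 and 9.13. The tRNA medians stood above 99.9% and 99.8% of all peaks of their lists. Neighbouring tRNA genes often share a peak. Of 208 separate STAG2 sites over a tRNA gene, 183 had no STAG1 peak and 14 were shared, all 14 at CTCF. Another 10 touched a peak of STAG1 replicate 2 only, and 1 touched a peak of replicate 1 only.

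Coverage differed between families of tRNA genes. All 24 arginine, all 7 phenylalanine and all 10 tyrosine tRNA genes had STAG2 and no STAG1, as did 16 of 17 for threonine and 15 of 16 for glutamine. At the other end stood 5 of 13 asparagine genes and 10 of 56 cysteine genes. On chromosome 13, whose tRNA genes lie in large clusters beside the histone genes, the count was 104 of 105, while on chromosome 6 it was 5 of 53. Without the cysteine genes the share over all tRNA genes was 71.3%.

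**Figure D3:**
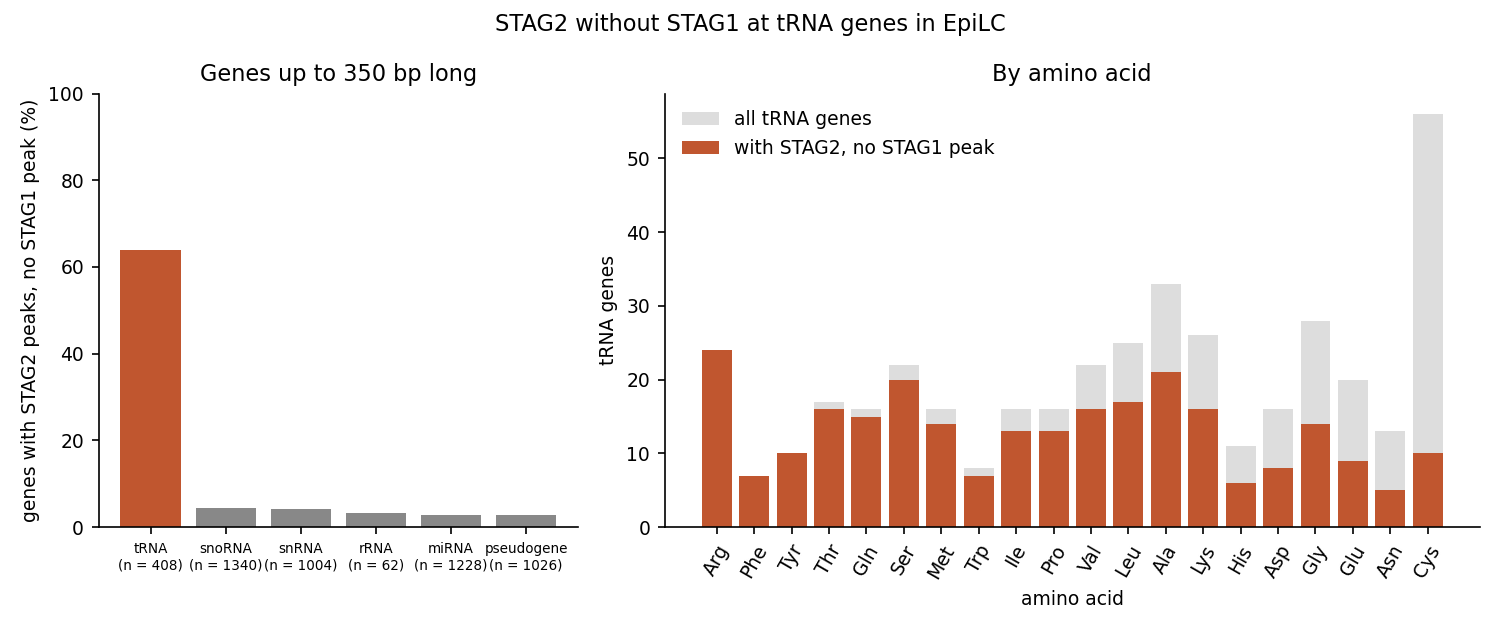
Left: the percentage of genes up to 350 bp long with a peak of both EpiLC STAG2 lists and no STAG1 peak, by RefSeq kind, with the number of genes in each; tRNA genes stand at 64.0%. Right: for each amino acid the number of tRNA genes (grey) and of those with STAG2 and no STAG1 (orange), which is 24 of 24 for Arg and 10 of 56 for Cys.

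All 10 strongest sites without a STAG1 peak overlapped at least 1 tRNA gene and none lay at a CTCF site. The first, at chr2:122377094-122378993 and 7946 bp from Shf, covered the histidine tRNA genes n-THgtg3 and n-THgtg5 with a STAG2 fold of 644 and 537. At chr11:48833622-48834832, inside Trim7, the site covered n-TKctt10 and n-TAtgc9 and had folds of 606 and 534. The site on n-TRcct2 at chr17:23548424-23549218, 7548 bp from Zfp213, had folds of 618 and 490. At the Prmt5 start the site chr14:54517395-54518114 had folds of 574 and 492, covered n-TRacg6, and overlapped the window printed above. The widest of the 10, at chr11:69040087-69042246 near Aurkb, covered 4 tRNA genes and had folds of 514 and 404. Of the other 5, 4 lay on chromosome 13 near Abt1, Btn1a1, Zfp184 and Btn2a2, and 1 near Shf. The Polg window holds the whole of n-TRtcg5, with STAG2 folds of 243 and 210 and no STAG1 peak. Letters matching the B box on the opposite strand, GGACTCGAACC, run from base 44 to base 54 of that window, counted from 1 at its 5′ end. Of all 32851 promoter windows 0.122% hold such letters on either strand, and of the 38 windows under a STAG2-only tRNA site 4 do. Those 38 were picked by a site over a tRNA gene, where the B box lies, so their count restates that choice in part.

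Some other genes of RNA polymerase III had the same pattern. Of 14 such genes listed after the sites had been seen, 7 had STAG2 in both lists and no STAG1. The share over all genes up to 350 bp long was 8.24%. Rny1 and Rny3, which encode Y RNAs, had folds of 182 and 137, and 184 and 152. Vaultrc5, the vault RNA gene, had 176 and 186, and Rmrp, the RNA of the RNase MRP, had 175 and 72.6. Rpph1, the RNA of RNase P, had 84.5 and 74.7, and Bc1, a neuronal RNA gene derived from a tRNA, had 49.1 and 42.0. Rprl3, the lowest of the 7, had 16.5 and 13.1. The 7SL RNA genes Rn7s1 and Rn7s2 also had a STAG1 replicate 2 peak, of 9.80 and 17.3. Their STAG2 folds were 11.9 and 80.1 at Rn7s1, and 38.3 and 200.2 at Rn7s2. No peak was called at Rn7sk, Rnu6, Rprl1, Rprl2 or Rn4.5s. Of 52 5S rRNA genes, repeats to which short reads map poorly, 2 had STAG2 and no STAG1.

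The other cell types gave like counts. Counting tRNA genes with STAG2 in every list and STAG1 in none, there were 261 in EpiLC, 246 in ESC, 239 in d2PGCLC, 248 in d4c7PGCLC and 251 in GSC. Of the EpiLC genes, 257 also had STAG2 in all ESC lists and 247 in all GSC lists. The median fold at tRNA genes was 340 and 284 in the EpiLC STAG2 lists, 166 and 154 in those of ESC, and between 46.6 and 165 in those of PGCLC and GSC. In GSC, where STAG3 was also read, 47, 118 and 135 tRNA genes had a STAG3 peak, at median folds of 5.43, 6.75 and 6.65. STAG2 immunoprecipitation from cells that lack STAG2 was not analysed here, so whether the peaks at tRNA genes depend on STAG2 was not tested.

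STAG2 sites without STAG1 also gathered into runs, and 2 of the 10 longest lay over genes of the formative state. Of 34188 runs made by joining such sites up to 10000 bp apart, 26036 had 1 site and 39 had 10 or more. Among the 10 longest, 4 lay in the tRNA and histone gene clusters of chromosome 13. The longest, chr13:23497574-23586039, had 26 sites over 15 histone genes and 14 tRNA genes. The other 3 held Zfp184, Abt1 with Btn1a1, or no protein-coding gene, with 21, 18 and 15 sites. Runs of 15, 13 and 13 sites, each with 1 site at CTCF, lay over Itga10, Ankrd35 and Pias3, over Gstt2, Mif and Derl3, and over Rbpms. The run over Pou3f1 and Utp11, chr4:124607269-124682158, had 20 sites in 74.9 kb, none at CTCF. Pou3f1 encodes OCT6, a transcription factor of the formative and primed epiblast. The span was chosen by EpiLC STAG2 sites without STAG1, so the EpiLC peak counts inside it restate that choice. In lists that did not choose it, ESC had 6 and 7 STAG2 peaks there, against 5 and 2 STAG1 peaks, and d2PGCLC had 14, 9 and 8 STAG2 peaks, against 4 and 7 STAG1 peaks. For d4c7PGCLC it was 7, 4 and 2 STAG2 peaks, against 5 and 3 STAG1 peaks, and for GSC 3, 2 and 3, against 1 and 1. Of its 20 sites 2 were STAG2 sites in ESC and 6 in d2PGCLC. Over all EpiLC STAG2 sites without a STAG1 peak, those shares were 56.5% and 28.7%.

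The run over Commd7 and Dnmt3b, chr2:153622591-153660256, had 13 sites, none at CTCF. Dnmt3b is the de novo DNA methyltransferase that EpiLC make in quantity. This span too was chosen by EpiLC STAG2 sites without STAG1. In it ESC had 4 and 5 STAG2 peaks, against 0 and 1 STAG1 peaks, and d2PGCLC had 5, 1 and 1 STAG2 peaks, against 0 and 0 STAG1 peaks. For d4c7PGCLC it was 1, 1 and 0 STAG2 peaks, against 0 and 1 STAG1 peaks, and for GSC 1, 0 and 0, against 0 and 0. Of the 13 sites, 3 were STAG2 sites in ESC, 0 in d2PGCLC and 0 in GSC. Over all EpiLC STAG2 sites without a STAG1 peak the shares were 56.5% in ESC, 28.7% in d2PGCLC and 4.06% in GSC. A STAG2 site needs 2 lists in ESC and 3 in d2PGCLC and GSC, so these shares differ in strictness. The folds in both runs were moderate, with medians of 7.73 and 8.56 at Pou3f1 and 6.23 and 6.56 at Dnmt3b, near the median of the class. The other kind of run was at Firre, a long noncoding RNA gene on X known for its row of CTCF sites. There 18 of 22 sites were at CTCF, all 22 were STAG2 sites in ESC, and 11 were STAG1 sites in d4c7PGCLC.

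**Figure D4:**
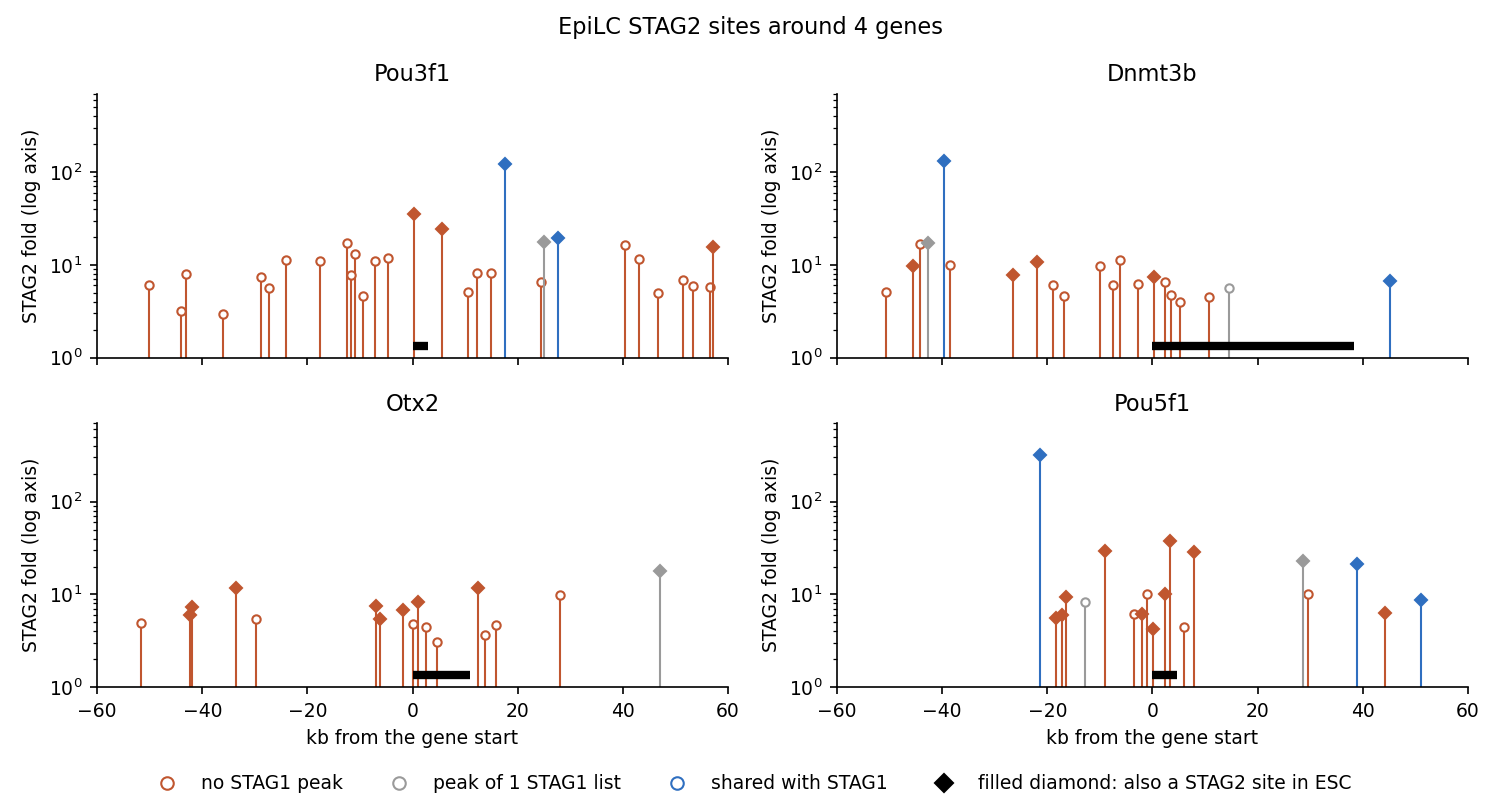
Each stem is an EpiLC STAG2 site, placed by its distance in kb from the gene start (for Pou3f1 from the lower end of the gene, as the strand is not in the table used), with its STAG2 fold (geometric mean of the 2 lists) on a log axis. Orange sites have no STAG1 peak, grey ones a peak of 1 STAG1 list and blue ones are shared; filled diamonds are also STAG2 sites in ESC, and the black bar is the gene. Within 60 kb of Pou3f1, 27 of 30 sites have no STAG1 peak and 6 are also ESC sites.

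Over all EpiLC STAG2 sites 65.6% had no STAG1 peak, 19.02% were shared and 70.2% were STAG2 sites in ESC, and the sites around 4 genes are set beside these shares with no test. Pou3f1 and Dnmt3b are shown because runs without STAG1 lie there, so their numbers of shared sites restate that choice in part. Within 60 kb of the lower end of Pou3f1 there were 30 STAG2 sites, of which 27 had no STAG1 peak and 2 were shared. The stronger shared one, 17.5 kb from that end, had STAG2 folds of 135 and 107. Within the same distance of the start of Dnmt3b 17 of 21 sites had no STAG1 peak and 2 were shared. At Otx2, a homeobox factor that drives the change from ESC to EpiLC, it was 16 of 17 with 0 shared. At Pou5f1 it was 14 of 19 with 3 shared, close to the shares over all sites. STAG2 sites in ESC were 6 of the 30 sites at Pou3f1, 7 of 21 at Dnmt3b, 9 of 17 at Otx2 and 14 of 19 at Pou5f1, against the 70.2% of all EpiLC STAG2 sites.

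At the ends of protein-coding genes, STAG2 without STAG1 was found more often than both proteins in the full lists, and less often in lists of equal length. Of 21887 genes, 8112 (37.1%) had no peak of any of the 4 lists and 7439 (34.0%) had a peak of both STAG2 lists and of neither STAG1 list within 2500 bp of an end. Peaks of all 4 lists were found at 2582 genes (11.8%), and STAG1 of both lists without STAG2 at 3 genes (0.0137%), which were Rpain, Actn2 and Atg13, chosen for naming after their values were seen. With lists of equal length the 3 counts were 466, 1637 and 302. A CTCF site lay at an end of 32.0% of the genes with STAG2 and no STAG1, against 96.3% of those with all 4 lists. The lists of genes that follow were chosen with earlier results of these data known, and their counts are set beside those of all genes with no test.

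Genes of core pluripotency and of the formative state mostly had STAG2 alone. Of the 10 core pluripotency genes 9 had STAG2 and no STAG1, and of the 19 formative genes 16 did, against 34.0% of all genes. STAG2 of both lists, with or without STAG1, was at 10 of 10 and 18 of 19, against 54.0% of all genes. By this measure genes of other lineages were also high, with 9 of 10 mesendoderm, 11 of 12 neural and 11 of 12 fibroblast genes. Over all genes, 7439 of the 11825 with STAG2 in both lists had no STAG1. Their median STAG2 folds were 7.62 and 7.54, against 58.6 and 57.4 at genes with all 4 lists. The counts per gene list were not matched for fold. The folds given for a gene may come from either end. Pou5f1 had STAG2 folds of 39.9 and 35.6 at a site 3.43 kb past its start, against 4.16 and 4.32 at the start. Sall4, a zinc-finger factor that sustains Pou5f1, had 36.2 and 32.8, and Tdgf1, a Nodal co-receptor, had 24.4 and 29.3. Lin28a, Utf1, Dppa4, Dppa2 and Rif1 were also among those with STAG2 alone. Sox2, the partner of OCT4, was the exception, with STAG2 folds of 71.7 and 112 and STAG1 folds of 5.56 and 19.5.

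Among formative genes, Pou3f1 had STAG2 folds of 33.0 and 37.7 at an end. Sall2 had 31.5 and 42.9, and Lin28b, an RNA-binding protein that blocks let-7 maturation, had 28.4 and 30.9. Otx2 had 12.2 and 11.01 at a site 12.4 kb past its start, against 4.56 and 5.15 at the start. The growth factor gene Fgf5, the classic marker of the formative epiblast, had 7.62 and 8.96. Dnmt3b had 8.02 and 6.79, and Dnmt3l, its catalytically inactive cofactor, had 8.58 and 18.0. Sox3, Zic2, Zic5, Lef1, Tcf15, Etv4, Etv5, Grhl2 and Cdh2 belonged to the same class. Fgf15 had peaks of all 4 lists, with STAG2 folds of 42.0 and 40.05 and STAG1 folds of 3.48 and 7.15. Foxd3 had a STAG1 peak in replicate 1 only, and Dnmt3a had no peak at an end, although 14 STAG2 sites lay within the gene. The median STAG2 fold at formative genes with STAG2 was 9.12 and 11.4, against 12.2 and 12.1 over all genes with STAG2.

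Genes of cohesin itself fell into several classes. Of 11 genes for cohesin subunits and CTCF, 4 had STAG2 of both lists at an end, against 54.0% of all genes. Stag2 had STAG2 folds of 133 and 105, no STAG1 peak in replicate 1 and a STAG1 fold of 8.50 in replicate 2. Ctcf had STAG2 folds of 45.2 and 31.0 and STAG1 folds of 6.88 and 4.38. Smc3, an ATPase of the ring, had 27.9 and 22.6 for STAG2, against 5.35 and 4.86 for STAG1, and the meiotic subunit gene Rec8 had STAG2 alone at 8.08 and 12.2. Stag1, Rad21, Smc1a and Smc1b had no peak at an end, and Stag3, Rad21l and Ctcfl had a peak of 1 STAG2 list. Of 10 regulator genes, Pds5b, which holds cohesin on or releases it from chromatin, had peaks of all 4 lists, with STAG2 folds of 134 and 134 and STAG1 folds of 8.11 and 12.2. Pds5a had STAG2 and a STAG1 replicate 2 peak. Wapl, the release factor, Esco1, an acetyltransferase of the ring, and Sgo1 had STAG2 alone at folds up to 5.08. The loader genes Nipbl and Mau2, and Esco2, Hdac8 and Cdca5, had at most a peak of 1 STAG2 list.

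Among the other lists the share with STAG2 alone ran from 5.61% to 77.8%, against 34.0% of all genes. STAG2 without STAG1 was found at 14 of 18 genes for chromatin readers and writers, among them Setdb1, a histone H3 lysine 9 methyltransferase (49.4 and 35.4), and Uhrf1, which maintains DNA methylation (37.2 and 33.2). It was found at 15 of 24 TGF-beta, FGF and Wnt signalling genes, 10 of 16 imprinted genes, 42 of 76 ribosomal protein genes, 9 of 16 naive pluripotency genes and 6 of 11 early germ cell genes. Genes of other lineages gave 5 of 12 (41.7%) for neural and 4 of 10 (40%) for mesendoderm genes, both near the share of all genes. Fibroblast genes gave 7 of 12 (58.3%). Of the signalling genes, Id2, an inhibitor of basic helix-loop-helix factors, was among 5 with all 4 lists, at STAG2 folds of 252 and 255 and STAG1 folds of 21.9 and 29.4. Of 63 replication-dependent histone genes, 38 had STAG2 alone. The highest was H4c8 at 402 and 326, which lies in the longest run, among tRNA genes.

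Hox and protocadherin genes had STAG1 more often than genes overall. Of 39 Hox genes 15 (38.5%) had peaks of all 4 lists, against 11.8% of all genes, and 8 (20.5%) had STAG2 alone. Hoxc10 had STAG2 folds of 205 and 201 and STAG1 folds of 14.8 and 26.7. Hoxb8 and Hoxb9 share peaks of 147 and 152 for STAG2, against 9.73 and 20.1 for STAG1. A CTCF site lay at an end of 21 of the 39 genes (53.8%), against 31.6% of all genes. Of 57 clustered protocadherin genes, whose promoters are known CTCF targets, 51 had a CTCF site at an end. STAG2 in both lists was at 55 (96.5%), against 54.0% of all genes. All 4 lists were at 13 (22.8%), against 11.8%, and STAG2 with 1 STAG1 list only at 29 (50.9%), against 8.24%. Neighbouring genes in both families share peaks, so these counts are not independent. Of 1106 olfactory receptor genes 62 (5.61%) had STAG2 alone and 992 (89.7%) had no peak, against 34.0% and 37.1% of all genes.

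**Figure D5:**
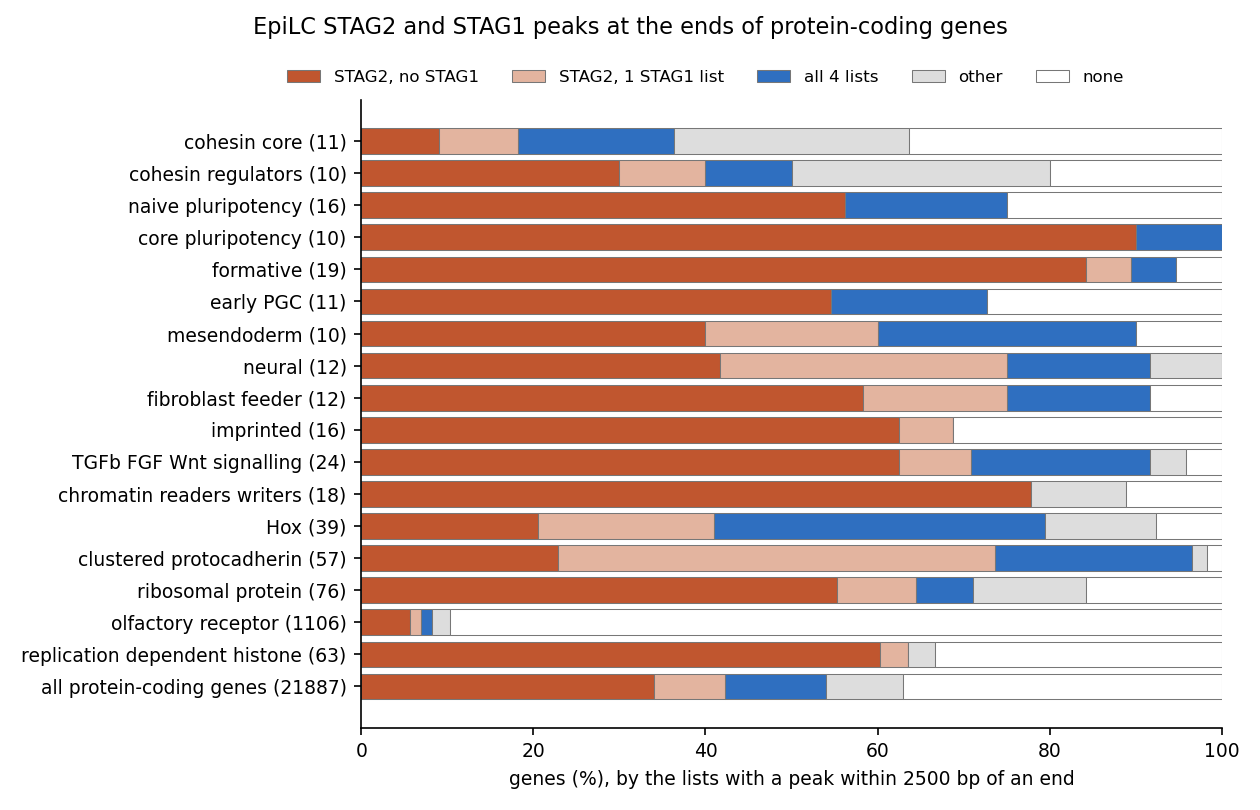
Bars divide each gene list (number of genes in brackets) by which EpiLC lists have a peak within 2500 bp of a gene end, in percent of genes; "other" holds the remaining combinations and white none. STAG2 without STAG1 (orange) covers 9 of 10 core pluripotency and 16 of 19 formative genes, against 34.0% of all protein-coding genes.

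Promoter letters were searched on both strands, and a match is no proof of binding. The CTCF core motif was in 2.65% of the 4294 promoter windows under a STAG2-only site off CTCF and without a STAG1 peak, and in 9.59% of the 1011 under such a site at CTCF, against 14.0% of the 730 under a shared site and 2.43% of all 32851 windows. The GC box GGGCGG was in 68.0%, 67.8%, 49.04% and 35.7% of the same sets of windows. The ETS letters CCGGAAG were in 12.4%, 17.2%, 9.04% and 8.86%. The YY1 letters AAGATGGC, the E-box CACGTG and the NRF1 motif were in 2.70%, 9.39% and 1.89% of the windows under a STAG2-only site off CTCF, against 2.75%, 7.15% and 0.971% of all windows. The Ctcf and Pou5f1 windows printed above each hold 1 GC box and no CTCF core.

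STAG1-only sites were few. There were 95, spread over 19 chromosomes, of which 80 had no STAG2 peak at all and 15 touched a peak of 1 STAG2 list. CTCF sites were overlapped by 28 (29.5%), gene ends by 18 and gene bodies by 50. Their median STAG1 fold was 5.44 and 6.51, against 6.52 and 8.69 over all STAG1 sites. The highest ranked, chr13:26990221-26990440, 67129 bp from Prl and at CTCF, had STAG1 folds of 16.4 and 21.9 and a STAG2 replicate 2 peak of 2.15. The next 4 were near Tsc22d2, in Apbb2, in C1qbp and in Nrxn3. Over the 95 sites the highest STAG1 fold was 16.4 in replicate 1 and 28.0 in replicate 2. The 5 shared sites of highest mean rank, in Bcl11b, near Chd9, near Mapkapk3, near Spata20 and in Trappc9, were all at CTCF. Their STAG1 folds ran from 22.5 to 26.2 in replicate 1 and from 33.2 to 44.4 in replicate 2, and their STAG2 folds from 288 to 463. Without STAG1 replicate 1 the number of STAG1-only sites was 1438, and with lists of equal length it was 2054.

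Part of what lacked STAG1 in EpiLC had it in other cell types. Of the EpiLC STAG2 sites without any STAG1 peak, 13.2% were STAG1 sites in ESC, 6.31% in d2PGCLC, 23.6% in d4c7PGCLC and 1.77% in GSC. For those at CTCF the shares were 36.9%, 15.8%, 61.7% and 7.65%, and for those off CTCF 6.05%, 3.45%, 12.2% and 0.00550%. The 10374 sites with a peak of STAG1 replicate 2 only were STAG1 sites in ESC in 70.4% and in d4c7PGCLC in 81.8% of cases. Shared sites were STAG1 sites in ESC in 97.7% of cases. The geometric mean length of the STAG1 lists was 19471 peaks in EpiLC, 33783 in ESC and 40214 in d4c7PGCLC.

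The gap in peak number was widest in EpiLC, but the difference from the other cell types did not pass the test. STAG2 lists were 4.31 times as long as STAG1 lists in EpiLC, 2.16 times in ESC, 2.301 times in d2PGCLC, 1.03 times in d4c7PGCLC and 2.03 times in GSC (ratios of geometric means). The EpiLC gap exceeded that over the other lists by 1.33 on the log2 scale (adjusted p = 0.190, exact two-sided permutation of cell type labels within each protein over 3510 regroupings, Benjamini-Hochberg over 3 gaps). The CTCF share gap was -46.2 points in EpiLC, against -25.0 over the other lists, a difference of -21.2 points (adjusted p = 0.190, exact permutation). With each of the 23 lists shortened to its 9641 peaks of highest fold, that difference was -0.468 points. The gene-end gap was 4.24 points in EpiLC, against 6.37 over the other lists (difference -2.13, adjusted p = 0.458, exact permutation). This last difference changed sign, to 1.16, with the 23 lists shortened in the same way.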

How the data were processed

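Peak lists were compared as deposited. Per the submitters' processing notes, the tools included Trim Galore 0.4.1, Bowtie2 2.3.4.1, SAMtools 1.7 and MACS2, with builds mm10 and GRCm38.p3; the control libraries and the settings of the caller are not stated there. The deposited columns give per peak a fold enrichment (a linear ratio), −log10 p-values and −log10 q-values, and a score. The lowest deposited −log10 q was above 2. STAG lists were called per library and CTCF lists on pooled replicates, per the peak names. Read depth is unknown, so no interval that needs it was computed.

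Overlap meant at least 1 shared bp. Genes were those of RefSeq on GRCm38.p6, whose main chromosomes are those of mm10: 21887 protein-coding and 49943 of any kind. Promoter windows covered 17492 of the protein-coding genes. Of the imprinted list, 2 names belong to no protein-coding gene and were left out. Interval steps were tested on simulated data against bedtools 2.31.1; the work used Python 3.11.15, NumPy 2.4.6 and pandas 2.3.3. Tests were exact permutations of lists. Site and gene counts were described, with no test.

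Named were all genes of the cohesin, formative and core pluripotency lists, the top 10 STAG2-only, 5 shared and 5 STAG1-only sites by mean fold rank within lists, the 10 longest runs, and the genes of highest STAG2 fold in other lists; a gene of the core pluripotency list is not reported here by name. The members and lists were chosen with earlier results of these data known. tRNA, other polymerase III and histone genes, the B box, the Polg window and the plotted loci were chosen after their values were seen. Alternatives were single lists left out, −log10 q of at least 3, lists of equal length, 50% overlap, CTCF of any genotype, a 1000 bp window and a replicate block.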

Additional observations from a re-analysis of the deposited data

How the results depend on the processing

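Under the alternatives 112 recomputed values were counted as keeping the reported result, 30 as moved and 1 as reversed. The reversed one is the gene-end gap between EpiLC and the other cell types. Of the 112, which kept their direction, all but 3 stayed within 1.5 times of the value reported. Among those that stayed were all values with peaks of −log10 q of at least 3 or with 50% overlap. The 3 exceptions are differences that shrank with lists of equal length. With EpiLC lists of 14720 peaks the CTCF share difference shrank to -4.78 points from -46.2, and the gene-end difference to 0.795 from 4.24. With 23 lists of 9641 peaks the CTCF gap between EpiLC and the other cell types shrank to -0.468 from -21.2. None of these differences had a p under 0.05 in any setting, the reported one included. With the EpiLC lists of 14720 peaks there were 13399 STAG2 sites, 4138 STAG2-only and 2054 STAG1-only sites. Shared were 69.1% of STAG2 and 81.9% of STAG1 sites, 69.8% of STAG2-only sites lay at CTCF, and gene ends held 20.4% of STAG2-only and 16.7% of shared sites. Genes with STAG2 and no STAG1, with both, and with STAG1 and no STAG2 numbered 466, 1637 and 302, while tRNA genes with STAG2 and no STAG1 numbered 252. With the 23 lists of 9641 peaks the gene-end gap between EpiLC and the other cell types turned to 1.16 points. The cause was not tested. With CTCF of any genotype 41.0% of STAG2-only sites were at CTCF. With a window of 1000 bp gene ends held 14.3% of STAG2-only and 10.7% of shared sites, and 1369 genes had both proteins.

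Leaving out each of the 4 lists in turn gave 13895 to 25756 STAG1 sites and 87 to 1438 STAG1-only sites. Shared were 16.2% to 33.4% of STAG2 sites and 94.4% to 99.4% of STAG1 sites. At CTCF lay 24.1% to 31.4% of STAG2-only and 82.2% to 91.7% of shared sites, and at gene ends 21.2% to 22.3% of STAG2-only and 17.4% to 18.8% of shared sites. Genes with both proteins numbered 2583 to 4172, and those with STAG1 and no STAG2 numbered 3 to 47. Most of the widest moves came without STAG1 replicate 1, and tRNA genes stayed between 261 and 264. Replicate numbers are shared between the proteins, but nothing shows that they pair the samples; with the replicate block the differences were 2.11, -46.2 and 4.24, and p was 0.5, the smallest that 2 pairs allow (exact permutation). Read depth is unknown, so what depth limits could not be measured.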
